A study of Mus musculus with 12 samples.

Results

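The machinery that makes, senses and removes retinoic acid was followed through 10 mouse genes in dendritic cells (DCs), covering synthesis (*Aldh1a1*, *Aldh1a2*, *Aldh1a3* and *Rdh10*), receptors (*Rara*, *Rarb*, *Rarg* and *Rxra*), and binding and breakdown (*Crabp2* and *Cyp26b1*). The members were fixed by name and every probe that carries one of their RefSeq accessions was read, which gave 13 probes for 9 of the 10 genes, out of 56605 probes and 24232 named genes on the arrays. No probe of *Crabp2* was matched by its accession, so it has no value here. The cells were bone marrow-derived DCs of female C57BL/6 mice, grown with GM-CSF and IL-4 and then given LPS, a component of bacterial membranes to which DCs respond by maturing, at 1 μg/mL for 24 h in every group. DC-Young came from untreated mice of 2 months, DC-Dysbiotic (labelled Young-Abx) from mice of 2 months that drank ampicillin, neomycin sulfate, metronidazole and vancomycin, DC-Old from untreated mice of 24 months, and DC-Old-LP from mice of 24 months gavaged with *Lactobacillus plantarum* (LP). Each group has 3 arrays, A, B and C, and per the study's methods each array carries RNA from pooled mice. The DCs were the loosely adherent cells of the culture and no sort is described, so an array averages over every cell type harvested, and fewer cells of a type and less RNA per cell cannot be told apart.

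Retinoic acid is made from vitamin A in a pair of steps. Retinol is oxidised to retinal, by RDH10 among others, and retinal is oxidised to retinoic acid by the retinaldehyde dehydrogenases ALDH1A1, ALDH1A2 and ALDH1A3. CRABP2 carries retinoic acid to the nucleus, where the retinoic acid receptors (RARα, RARβ and RARγ) pair with retinoid X receptors such as RXRα on DNA and switch on target genes, and CYP26B1 oxidises retinoic acid for removal. *Rarb* and the *Cyp26* genes are themselves classic targets of retinoic acid. In gut DCs, ALDH1A2 is known for making the retinoic acid that helps to induce regulatory T cells and gut homing receptors, and GM-CSF and IL-4 are known inducers of *Aldh1a2* in DCs.

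The promoters of *Rarb*, *Cyp26b1* and *Aldh1a1* are shown. These were the members called at an adjusted p in at least 1 of the fits below over all arrays. *Cyp26b1* was called in the fits with a block and not in the main one. *Aldh1a2*, called at an adjusted p on the A and B arrays alone, is not shown, and its window held no core motif. RefSeq windows of 300 bases (250 before and 50 after a transcription start, assembly GRCm38.p6) were at hand for 7 of the 10 members, 13 windows in all. They were searched on both strands for the core motif of retinoic acid receptors, AGGTCA in its usual form or the variant AGTTCA, the variant GGGTCA or the variant GGTTCA, and for direct repeats of it with 1, 2 or 5 bases between. Capitals mark the core motif, which reads as its reverse complement where it lies on the other strand.
*Rarb* (chr14:16575427-16575726, minus strand): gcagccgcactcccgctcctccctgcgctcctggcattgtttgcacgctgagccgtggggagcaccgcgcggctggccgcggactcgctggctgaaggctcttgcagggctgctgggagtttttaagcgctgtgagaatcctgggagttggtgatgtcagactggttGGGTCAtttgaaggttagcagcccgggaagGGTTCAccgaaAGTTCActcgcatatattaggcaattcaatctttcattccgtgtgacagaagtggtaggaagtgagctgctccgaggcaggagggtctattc
*Cyp26b1* (chr6:84593761-84594060, minus strand): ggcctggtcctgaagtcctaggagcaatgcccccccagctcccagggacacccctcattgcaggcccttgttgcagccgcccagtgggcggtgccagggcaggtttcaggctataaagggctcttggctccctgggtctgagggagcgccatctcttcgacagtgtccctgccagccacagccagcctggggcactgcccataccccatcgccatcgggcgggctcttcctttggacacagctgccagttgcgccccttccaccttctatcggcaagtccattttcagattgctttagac
*Aldh1a1* (chr19:20601718-20602017, plus strand): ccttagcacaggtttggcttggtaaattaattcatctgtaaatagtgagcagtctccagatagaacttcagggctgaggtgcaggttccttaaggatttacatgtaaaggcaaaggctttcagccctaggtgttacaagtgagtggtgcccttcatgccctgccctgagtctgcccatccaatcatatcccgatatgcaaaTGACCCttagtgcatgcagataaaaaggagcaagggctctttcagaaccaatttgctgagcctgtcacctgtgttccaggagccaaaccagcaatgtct
The *Rarb* window held 3 core motifs, and a pair of them, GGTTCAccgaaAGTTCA, formed a direct repeat with 5 bases between, from 53 to 37 bases before the start. That spacing is the well-known retinoic acid response element. It was found in 1 of the 7 members with a window and in 0.0974% of all 32851 RefSeq windows. A single core motif was found in 43.7% of all windows, so the 1 motif in the *Aldh1a1* window, 49 to 44 bases before the start, is common. The other *Aldh1a1* start and the *Cyp26b1* window held none of these letters. A match is only a description of the letters in the window.

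Values are log2 of the background-subtracted spot signal after quantile normalization, which gives every array the same distribution, so 1 unit is a doubling of signal. A level of one probe cannot be set against that of another. The A and B arrays of all groups shared a slide, and 61.2% to 66.4% of their spots were well above background. The C arrays sat on other slides, one for DC-Young and DC-Dysbiotic and one for DC-Old and DC-Old-LP, and were dimmer, with 37.3% to 46.0%. Comparisons were made with limma over all 12 arrays. A change was called where p, adjusted over all probes by Benjamini-Hochberg, was 0.05 or less and the log2 fold change was 0.5 or more in size, and the calls with the replicate letter as a block, which takes out the offset of the C arrays, are given beside them. The DC markers *Itgax* (CD11c) and *Cd74* (MHC class II invariant chain) were bright in every group, at 14.09 to 14.80 and 16.78 to 17.19, and of 10 DC markers none was called in DC-Old relative to DC-Young, in DC-Dysbiotic relative to DC-Young or in DC-Old-LP relative to DC-Old. With the block, 1 DC marker was higher and 1 was lower in the first of these. The median log2 fold change of the 10 was -0.02, -0.24 and 0.04, with 5, 8 and 5 of them negative. Of the 10, 8 were well above background on every array, as were all 10 genes of a macrophage list. These levels therefore do not measure the share of DCs.

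Of the 9 measured members, read at the brightest probe with no filter on low values, 7 were well above background on all 12 arrays, *Rarb* was on 11 and *Aldh1a3* on none. Relative to DC-Young, *Aldh1a1* was called higher and *Rarb* lower in DC-Old, a comparison where 0.620% of all probes were called. In DC-Dysbiotic relative to DC-Young, *Aldh1a1* alone was called, where 0.344% of all probes were. In DC-Old-LP relative to DC-Old, *Aldh1a1* was lower and *Rarb* was higher, where 0.348% of all probes were called. With the replicate letter as a block, 3 of 9 members were called in each of these comparisons, *Aldh1a1*, *Rarb* and *Cyp26b1*, against 2.18%, 0.984% and 1.65% of all probes. The slide as a block called the same 3 members in each, against 2.70%, 2.04% and 3.29% of all probes. At an unadjusted p the calls were 4, 3 and 3 members, against 6.00%, 3.85% and 5.79% of all probes. The arrays of both groups did not overlap for 5 of 9 members in each of the 3 comparisons, against 9.65%, 9.86% and 9.38% of all probes. DC-Old stands in the first and the third comparison, and DC-Young in the first and the second, so these comparisons are not independent of each other.

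**Figure D1:**
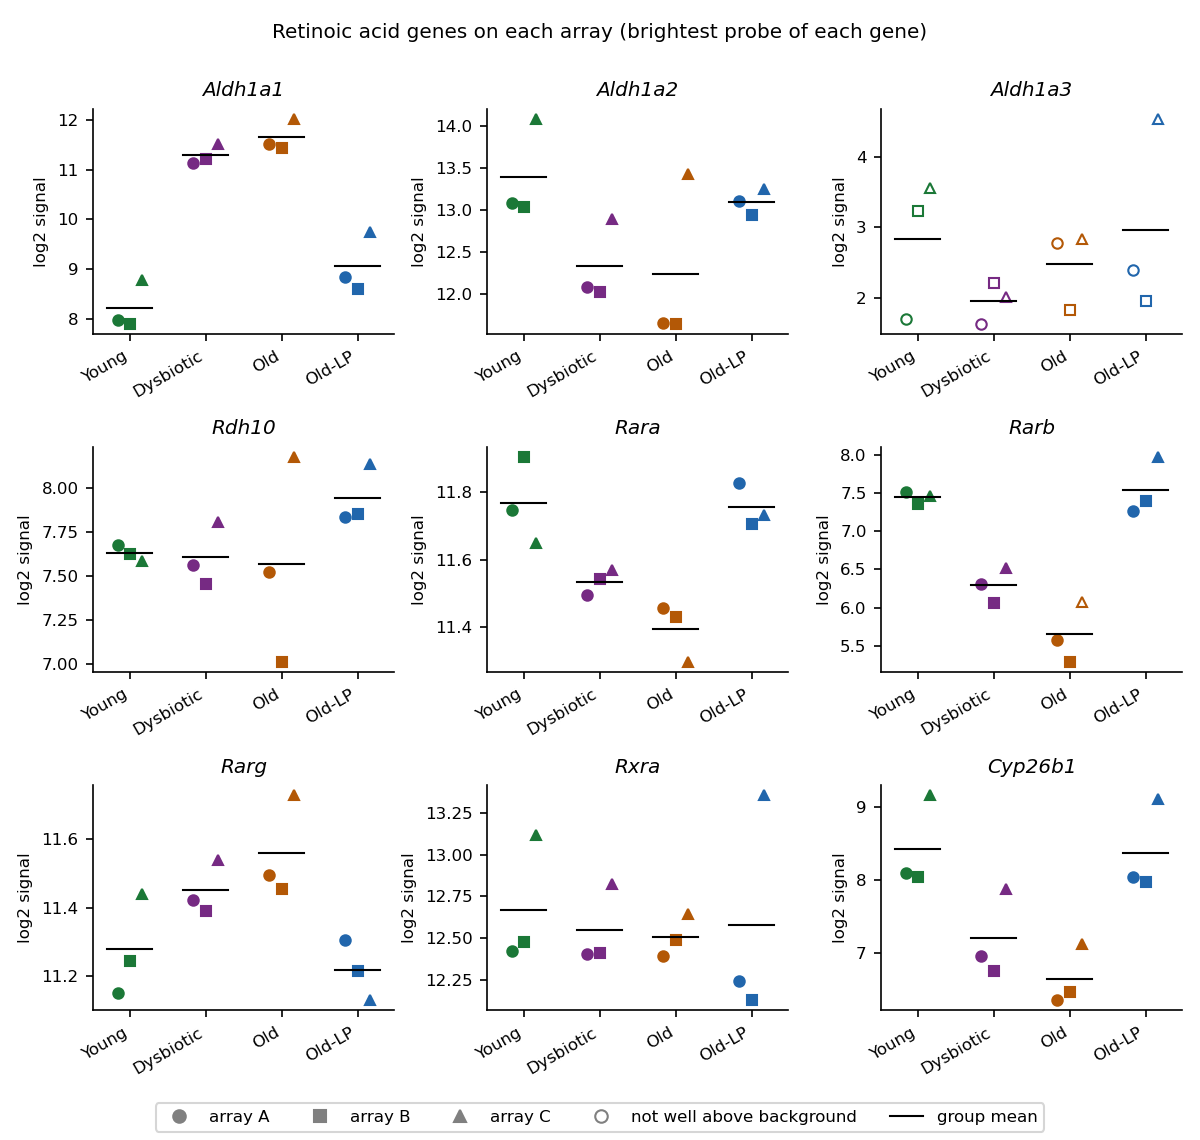
Normalized log2 signal of the 9 measured genes at their brightest probe on each of the 12 arrays (circle A, square B, triangle C), with the group mean as a line, each panel on its own scale. *Aldh1a1* sits at 11.13 or above in DC-Dysbiotic and DC-Old and at 9.75 or below in DC-Young and DC-Old-LP, and *Rarb* and *Cyp26b1* run the other way.

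*Aldh1a1*, a retinaldehyde dehydrogenase, changed most among the members in each of these 3 comparisons. Its log2 signal was 7.97, 7.90 and 8.77 on the A, B and C arrays of DC-Young, 11.13, 11.22 and 11.53 in DC-Dysbiotic, 11.53, 11.44 and 12.03 in DC-Old, and 8.85, 8.60 and 9.75 in DC-Old-LP. Every DC-Old and DC-Dysbiotic array was above every array of the other groups, and DC-Young and DC-Old-LP overlapped. The mean was 8.21 ± 0.48 (SD, n = 3) in DC-Young and 11.66 ± 0.32 in DC-Old, a log2 fold change of 3.45 (SE 0.36, 10.9-fold, limma adjusted p = 0.0024). DC-Dysbiotic, at 11.29 ± 0.21, exceeded DC-Young with a log2 fold change of 3.08 (SE 0.36, 8.45-fold, limma adjusted p = 0.0063). DC-Old-LP, at 9.07 ± 0.61, was lower than DC-Old with a log2 fold change of -2.60 (SE 0.36, limma adjusted p = 0.018). The differences were of like size on the slide of the A and B arrays, at 3.55, 3.24 and -2.76, and between the C arrays, at 3.26, 2.76 and -2.27. The rises in DC-Old and DC-Dysbiotic remained called when any 1 array was left out. The call in DC-Old-LP was lost without the A or B array of DC-Old or of DC-Old-LP (limma adjusted p of 0.079 to 0.11), after a shift by the 75th percentile in place of quantiles (0.056) and in a fit to the 2 groups alone (0.31), and the latter also ended the call in DC-Old relative to DC-Young (0.073).

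*Aldh1a7*, a close relative of *Aldh1a1* in the mouse genome, has a probe of its own. It read 6.20, 6.08 and 6.92 in DC-Young and 4.53, 4.64 and 5.99 in DC-Old, with a log2 fold change of -1.35 that was not called (limma adjusted p = 0.76). Its value on the C array of DC-Old was not well above background, so the difference is not fully measured.

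Markers of other cell types moved with *Aldh1a1*. Of 8 bone marrow stroma genes, all 8 had a positive log2 fold change in DC-Old relative to DC-Young and 4 were called. *Dcn*, a matrix proteoglycan, rose by 4.29 (limma adjusted p = 0.0011), *Col1a2*, a chain of type I collagen, by 3.75 (0.0084) and *Pdgfrb*, a growth factor receptor of stromal cells, by 2.83 (0.040). *Dcn* and *Col1a2* were not well above background on the C array of DC-Young, so their rises are not fully measured. *Col1a1*, the other chain, is read from several spots, and a probe was taken as well above background only where all its spots were. A share of 0.1 of them was on the A array of DC-Young and none on its B and C arrays, so it was taken as not well above background there. It was at least 8.37-fold higher in DC-Old (limma adjusted p = 0.024), measured against the lowest signal well above background on the DC-Young arrays. The summed signal of the list, on the log2 scale, was 8.97 to 9.35 in DC-Young, 10.97 to 11.08 in DC-Dysbiotic, 11.07 to 11.75 in DC-Old and 9.44 to 10.25 in DC-Old-LP, so the groups with high *Aldh1a1* did not overlap the others. *Lum* was not well above background on any array of DC-Young and DC-Old-LP, and neither was *Col3a1* in DC-Young. In DC-Dysbiotic relative to DC-Young, 3 of the 8 were called higher, and in DC-Old-LP relative to DC-Old *Dcn* alone was called, with -2.72 (0.021), with all 8 log2 fold changes negative.

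Of 8 megakaryocyte and erythroid genes, 2 were called higher in DC-Old and in DC-Dysbiotic than in DC-Young, the platelet receptor subunits *Gp9* (log2 fold change of 2.36 in DC-Old, limma adjusted p = 0.018) and *Gp1bb* (2.83, 0.0020). *Gp1bb* was also called lower in DC-Old-LP than in DC-Old (-2.41, 0.0093). It was not well above background on the C array of DC-Young, so its change from DC-Young is not fully measured. The summed signal of this list was 15.78 to 16.19 in DC-Young, 16.38 to 16.85 in DC-Dysbiotic, 16.30 to 16.88 in DC-Old and 15.89 to 16.30 in DC-Old-LP. *Camp*, an antimicrobial peptide of neutrophil precursors, was the only called gene of 10 neutrophil genes in DC-Old relative to DC-Young (2.71, 0.021), and the list's median was -0.68. The part of other cells in the *Aldh1a1* result was not tested.

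**Figure D2:**
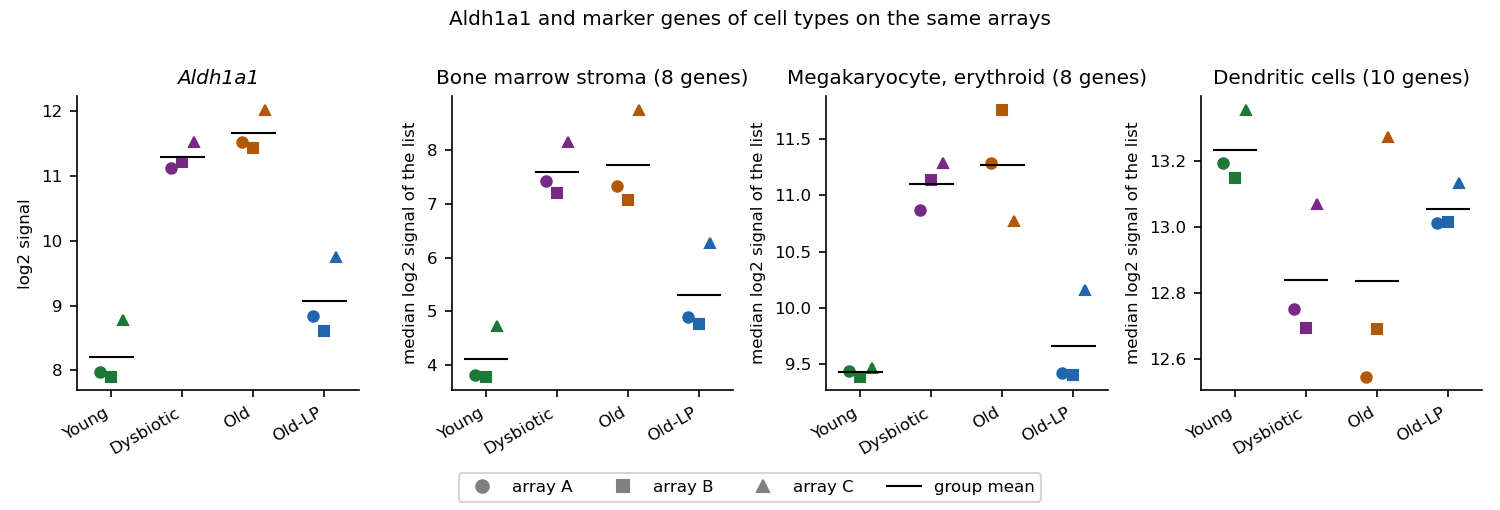
Normalized log2 signal of *Aldh1a1* (left) and the median log2 signal of 3 marker lists on the same 12 arrays (circle A, square B, triangle C, line for the group mean), each panel on its own scale. The stroma median is 7.07 to 8.74 in DC-Dysbiotic and DC-Old and 3.79 to 6.27 in DC-Young and DC-Old-LP. The DC median is 13.15 to 13.35 in DC-Young and 13.01 to 13.13 in DC-Old-LP. It is 12.69 to 13.07 in DC-Dysbiotic and 12.55 to 13.27 in DC-Old.

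*Aldh1a2*, the retinaldehyde dehydrogenase known from gut DCs, was not called in any comparison over all arrays. Its log2 signal was 13.08, 13.03 and 14.09 on the A, B and C arrays of DC-Young, 12.08, 12.02 and 12.89 in DC-Dysbiotic, 11.65, 11.64 and 13.43 in DC-Old and 13.11, 12.95 and 13.25 in DC-Old-LP. The A and B arrays of DC-Old were the lowest of all, but its C array was above all arrays of DC-Old-LP. Relative to DC-Young, DC-Old had a log2 fold change of -1.16 (95% interval -2.27 to -0.04, limma adjusted p = 0.78, and 0.11 with the replicate letter as a block). It was -1.06 in DC-Dysbiotic relative to DC-Young (interval -2.18 to 0.05), where the groups did not overlap. For DC-Old-LP relative to DC-Old it was 0.86 (interval -0.26 to 1.97). The last difference was 1.38 between the A and B arrays and -0.18 between the C arrays. With 1 array left out the first difference ran from -1.75 (without the C array of DC-Old, limma adjusted p = 0.085) to -0.81 (without the C array of DC-Young), and the last from 0.56 (without the A or B array of DC-Old) to 1.45 (without its C array, 0.20). Fitted on the A and B arrays alone, *Aldh1a2* was called beside *Aldh1a1*, *Rarb* and *Cyp26b1* in each of the 3 comparisons (limma adjusted p of 0.00083, 0.0043 and 0.0010), where 9.17%, 6.14% and 8.24% of all probes were called. The study describes the 3 arrays of a group as independent sets of pooled mice, and the A and B arrays of a group were more alike (r of 0.992 to 0.995 over all probes) than either was to C (0.900 to 0.950).

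*Rdh10*, a retinol dehydrogenase, lay between 7.01 and 8.18 on all 12 arrays and had log2 fold changes of -0.06 in DC-Old relative to DC-Young (95% interval -0.70 to 0.58), -0.02 in DC-Dysbiotic relative to DC-Young (-0.66 to 0.62) and 0.37 in DC-Old-LP relative to DC-Old (-0.27 to 1.01). *Aldh1a3* was not well above background on any array, so it has no fold.

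*Rarb*, the receptor that carries the direct repeat shown above, ran opposite to *Aldh1a1*. At its brightest probe the log2 signal was 7.51, 7.35 and 7.46 in DC-Young, 6.31, 6.06 and 6.52 in DC-Dysbiotic, 5.58, 5.29 and 6.08 in DC-Old and 7.27, 7.39 and 7.96 in DC-Old-LP. Every array of DC-Old and DC-Dysbiotic was below every array of DC-Young and DC-Old-LP. The C array of DC-Old was the only one not well above background. The mean was 7.44 ± 0.08 (SD, n = 3) in DC-Young and 5.65 ± 0.40 in DC-Old, a log2 fold change of -1.79 (SE 0.28, limma adjusted p = 0.019), with -1.99 between the A and B arrays and -1.38 between the C arrays. DC-Old-LP, at 7.54 ± 0.37, was higher than DC-Old by 1.89 (SE 0.28, 3.71-fold, limma adjusted p = 0.023), with 1.89 between the A and B arrays and 1.89 between the C arrays. DC-Dysbiotic, at 6.30 ± 0.23, had a log2 fold change of -1.14 relative to DC-Young, called only with the replicate letter as a block (limma adjusted p of 0.24 without and 0.029 with it).

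The *Rarb* calls were close to the threshold. The call in DC-Old relative to DC-Young was lost without any one of the 3 DC-Young arrays or without the A or B array of DC-Old, with adjusted p of 0.063 to 0.11. The call in DC-Old-LP relative to DC-Old held without the C array of DC-Young, of DC-Dysbiotic or of DC-Old and was lost without any one of the other 9 arrays, with 0.050 to 0.12. A fit to the 2 groups alone ended both calls (0.22 and 0.44) and the 75th percentile shift ended the second (0.056). With normexp background correction the first shrank to -0.87 and was not called (0.053), and the second to 0.97 and was called (0.037). In the fit blocked by letter the adjusted p were 0.0028 and 0.0036. The second *Rarb* probe, well above background on 9 of 12 arrays, was not called, with log2 fold changes of -0.61 in DC-Old relative to DC-Young, -0.78 in DC-Dysbiotic relative to DC-Young and 0.50 in DC-Old-LP relative to DC-Old. The third was not well above background on any array. Taken as the mean over its probes, *Rarb* was not called, with log2 fold changes of -0.91 (adjusted p = 0.38) in DC-Old relative to DC-Young and 1.23 (0.18) in DC-Old-LP relative to DC-Old. That mean includes the third probe, so it holds signal not well above background.

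The other receptors differed little. *Rara*, the receptor gene for RARα, lay at 11.75, 11.90 and 11.65 in DC-Young, 11.49, 11.54 and 11.57 in DC-Dysbiotic, 11.46, 11.43 and 11.30 in DC-Old and 11.83, 11.70 and 11.73 in DC-Old-LP. DC-Old was below and did not overlap any other group, but its log2 fold change of -0.37 relative to DC-Young was not called (95% interval -0.78 to 0.03, limma adjusted p = 0.91, and 0.26 with the block). The second *Rara* probe gave -0.50 with overlapping groups. *Rarg*, for RARγ, differed by 0.28 on the log2 scale in DC-Old relative to DC-Young (interval -0.15 to 0.71) and by -0.34 in DC-Old-LP relative to DC-Old (-0.77 to 0.08), with no overlap in either and no call with or without the block. *Rxra*, for RXRα, lay between 12.13 and 13.35 on all arrays with overlapping groups, and its log2 fold change in DC-Old relative to DC-Young was -0.16 (interval -0.93 to 0.60).

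*Cyp26b1*, the enzyme that removes retinoic acid, was lower in DC-Old and DC-Dysbiotic and had a level in DC-Old-LP like that of DC-Young. Its log2 signal was 8.10, 8.04 and 9.16 in DC-Young, 6.97, 6.76 and 7.88 in DC-Dysbiotic, 6.36, 6.47 and 7.12 in DC-Old and 8.05, 7.98 and 9.11 in DC-Old-LP. Within each group the C array was the brightest, and no array of DC-Old or DC-Dysbiotic reached the lowest of DC-Young. The log2 fold changes were -1.79 in DC-Old relative to DC-Young (SE 0.45, limma adjusted p = 0.19), -1.23 in DC-Dysbiotic relative to DC-Young (SE 0.45, 0.91) and 1.73 in DC-Old-LP relative to DC-Old (SE 0.45, 0.26), none of them called. With the replicate letter as a block all 3 were called, with adjusted p of 0.0011, 0.0080 and 0.0025. The differences were -1.66, -1.21 and 1.60 between the A and B arrays, and -2.04, -1.28 and 1.99 between the C arrays.

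**Figure D3:**
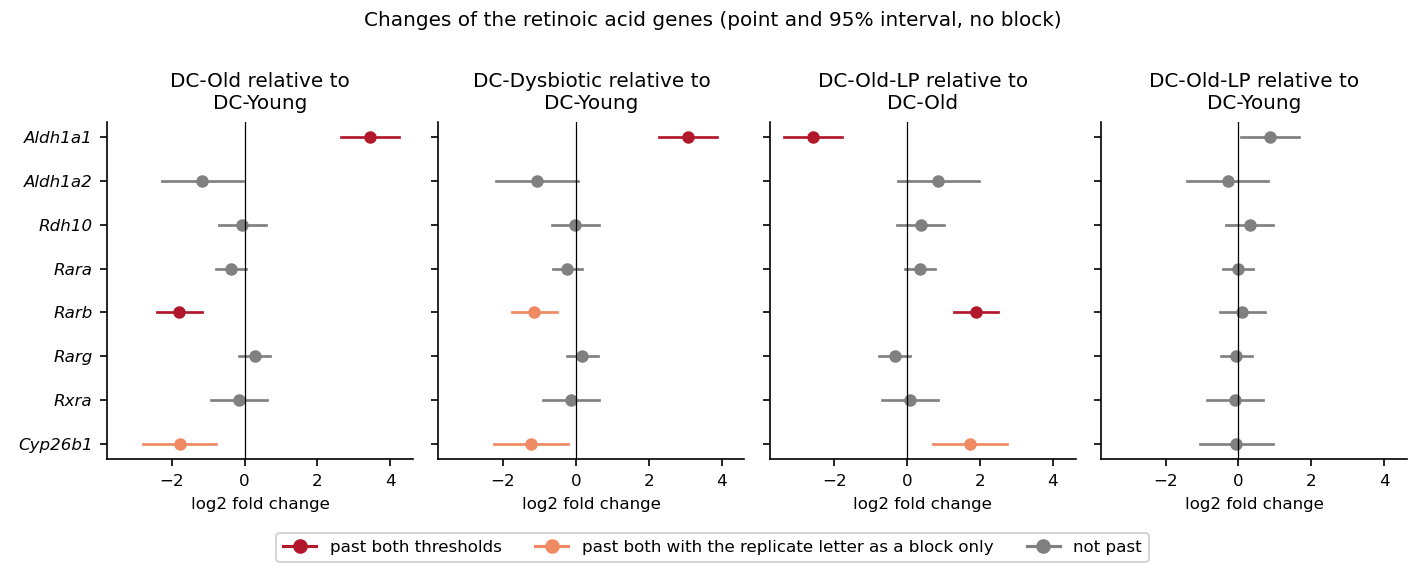
Log2 fold change with its 95% interval (no block) for the 8 members above background, in 4 comparisons on 1 scale, coloured by whether the change was called. *Aldh1a1* lies at 3.45, 3.08 and -2.60 in the first 3 panels and *Rarb* at -1.79, -1.14 and 1.89, and in DC-Old-LP relative to DC-Young no member is called.

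In DC-Old-LP relative to DC-Young, limma called 0 of the 9 members and 0% of all probes, and at an unadjusted p of at most 0.05 with the same fold it called 1 member, *Aldh1a1*, and 1.12% of all probes. The *Aldh1a1* difference was 0.86 (95% interval 0.06 to 1.65, not adjusted for the number of probes), the groups overlapped, and it was 0.51 without the C array of DC-Old-LP. The intervals were -0.51 to 0.72 for *Rarb* and -1.06 to 0.95 for *Cyp26b1*, each wide enough to hold differences of 0.5. With the replicate letter as a block 0 members and 0.00177% of all probes were called. Relative to DC-Dysbiotic, DC-Old-LP had 0 members called, where 0.163% of all probes were, and 3 at an unadjusted p (3.30% of all probes), while the replicate letter as a block called *Aldh1a1* lower (-2.22, adjusted p = 0.0052), *Rarb* higher (1.24, 0.027) and *Cyp26b1* higher (1.18, 0.017), where 0.588% of all probes were called. Without the block, *Aldh1a1* had an adjusted p of 0.055 and was called when the C array of DC-Young, of DC-Old or of DC-Old-LP was left out (0.026 to 0.046). The slide as a block called the same 3 (0.728%) and the A and B arrays alone called *Aldh1a2* too (4.81%). In DC-Old relative to DC-Dysbiotic 0 members were called, with or without the block, where 0.00177% of all probes were, and at an unadjusted p 1 was, *Rarb* (-0.65), against 1.53% of all probes. That *Rarb* difference was -0.15 with normexp and 0.17 at the second probe.

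The mean levels of *Aldh1a1* ranked DC-Old, DC-Dysbiotic, DC-Old-LP and DC-Young from high to low. Those of *Rarb* ranked DC-Old-LP, DC-Young, DC-Dysbiotic and DC-Old, and those of *Cyp26b1* ranked DC-Young, DC-Old-LP, DC-Dysbiotic and DC-Old. For all 3 genes the first and the second group in this order overlapped, and so did the third and the fourth.

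The wider retinoid pathway was read through 96 further genes in 8 lists, of which 66 were well above background on every array and 12 on none. Over these 96 genes, DC-Old relative to DC-Young had 1 called higher and 1 called lower, DC-Dysbiotic relative to DC-Young had 1 higher and 0 lower, and DC-Old-LP relative to DC-Old had 1 higher and 0 lower. Over all 24232 named genes at the brightest probe, 149 were higher and 70 lower, 109 and 6, and 49 and 75. The median log2 fold change of the 96 was -0.01, -0.03 and 0.05, against 0.003, -0.009 and 0.011 over all named genes at the brightest probe. No gene of the lists for retinoid uptake and storage, other retinol and retinal dehydrogenases, other aldehyde dehydrogenases, receptor co-regulators or the receptors and signalling molecules known to regulate *Aldh1a2* in DCs was called in these 3 comparisons, with or without the block.

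Of 12 retinoic acid target genes, 6 were well above background on every array. *Asb2* and *Rarres2* were called in DC-Old relative to DC-Young, in opposite directions. The median log2 fold change of the list was -0.49 there, with 8 negative and 4 positive. In DC-Dysbiotic relative to DC-Young it was 0.18, with 4 negative and 8 positive. *Asb2*, a retinoic acid-induced subunit of a ubiquitin ligase, read 9.29, 9.52 and 9.30 in DC-Young, 8.04, 8.10 and 8.64 in DC-Dysbiotic, 7.39, 7.62 and 7.06 in DC-Old and 9.17, 9.19 and 9.07 in DC-Old-LP. DC-Old was below every other group without overlap. Its log2 fold change was -2.01 in DC-Old relative to DC-Young (SE 0.24, limma adjusted p = 0.0051) and 1.79 in DC-Old-LP relative to DC-Old (SE 0.24, 0.016). *Rarres2*, which encodes the secreted attractant chemerin, read 3.55, 3.09 and 2.11 in DC-Young, 6.70, 6.59 and 7.73 in DC-Dysbiotic, 6.96, 6.92 and 8.58 in DC-Old and 4.50, 3.87 and 5.82 in DC-Old-LP. It was well above background on 1 of 3 DC-Young arrays, so the size of its change is not well measured there. The fit called it higher than in DC-Young in DC-Old (fitted log2 fold change of 4.57, SE 0.63, limma adjusted p = 0.011) and in DC-Dysbiotic (4.10, 0.028). Its direction is that of *Aldh1a1* and of the stroma markers, and it was -2.76 in DC-Old-LP relative to DC-Old, which was not called (0.16).

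With the replicate letter as a block, DC-Old relative to DC-Young had 1 target gene higher and 3 lower, and 2 were higher in DC-Old-LP than in DC-Old. *Hic1*, a transcriptional repressor, then had -1.76 in DC-Old (limma adjusted p = 0.0037, 0.68 without the block), -1.28 in DC-Dysbiotic (0.023) and 1.41 in DC-Old-LP relative to DC-Old (0.012), and *Cebpe*, a myeloid transcription factor, had -0.78 in DC-Old (0.033). Outside this list *Cyp2s1*, a cytochrome P450 that can oxidise retinoic acid, had the largest change in DC-Old relative to DC-Young among pathway genes well above background on all 12 arrays. It read 9.57, 9.56 and 10.17 in DC-Young, 6.05, 6.37 and 8.20 in DC-Old and 8.96, 9.28 and 10.43 in DC-Old-LP, with log2 fold changes of -2.89 in DC-Old relative to DC-Young (limma adjusted p = 0.12, and 0.0030 with the block) and 2.69 in DC-Old-LP relative to DC-Old (0.19 and 0.0057). Among the partners of the retinoid X receptors, the vitamin D receptor gene *Vdr* had -0.90 (0.046 with the block) and the liver X receptor gene *Nr1h3* had 0.64 (0.040 with the block) in DC-Old relative to DC-Young, and neither was called without it.

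**Figure D4:**
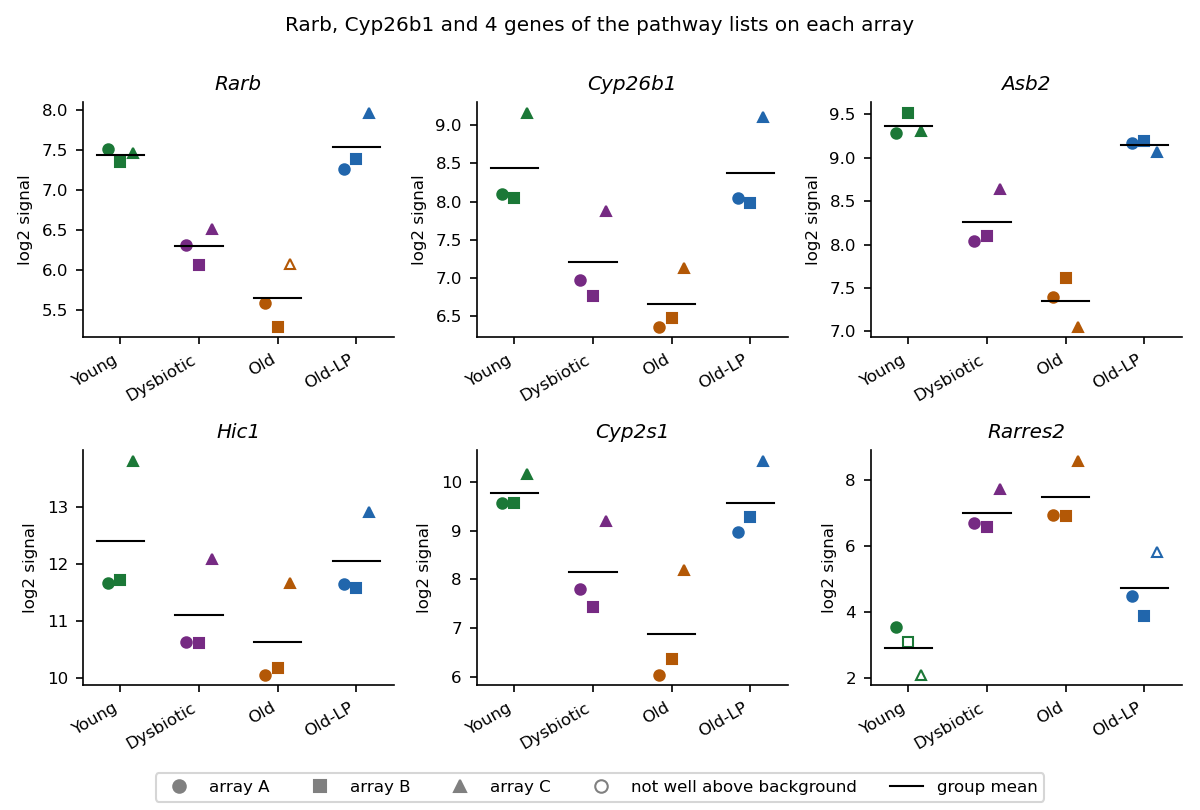
Normalized log2 signal of *Rarb*, *Cyp26b1* and 4 genes of the pathway lists on each array (circle A, square B, triangle C, line for the group mean, open where not well above background), each panel on its own scale. The means of *Rarb*, *Cyp26b1*, *Asb2*, *Hic1* and *Cyp2s1* are lowest in DC-Old, and *Rarres2* is highest there.

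**Figure D5:**
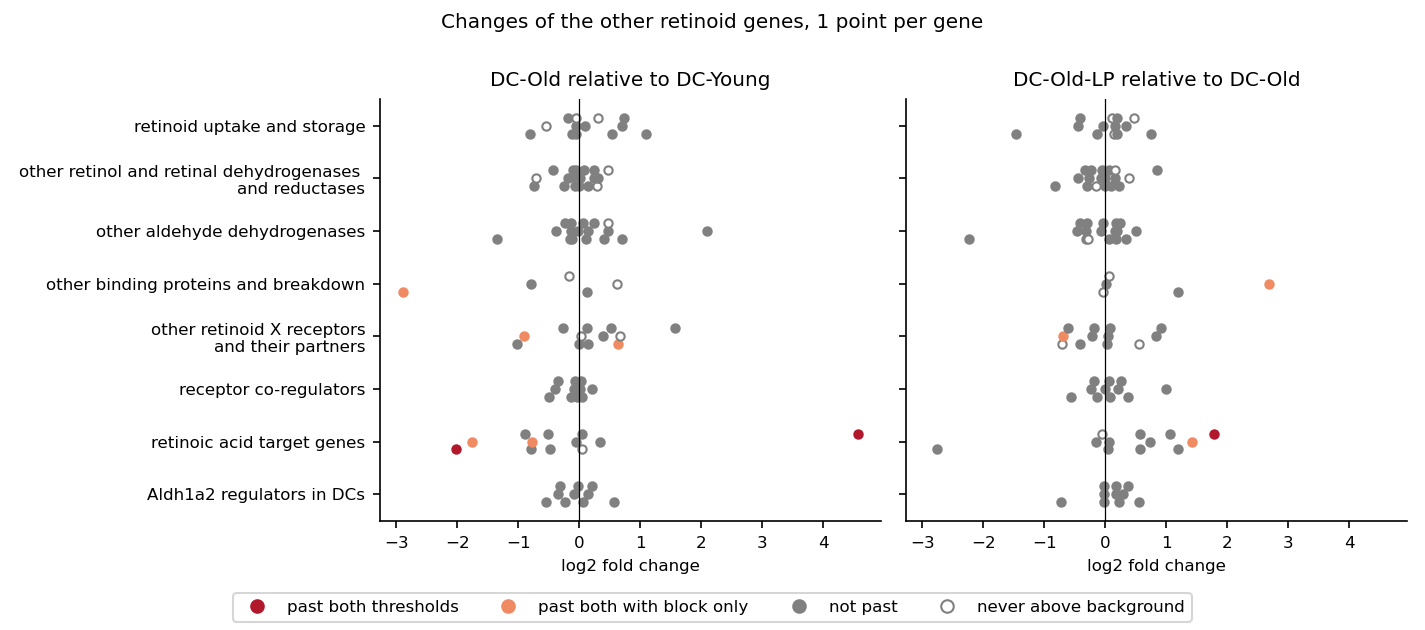
Log2 fold change of each gene of the 8 pathway lists, 1 point per gene, in DC-Old relative to DC-Young and in DC-Old-LP relative to DC-Old, coloured by whether it was called. Most of the 96 genes sit near 0, and *Asb2* (-2.01 and 1.79) and *Rarres2* (4.57 on the left) are the called genes.

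Lists of other cell types moved in these comparisons too. All 6 T cell genes had a negative log2 fold change in DC-Old relative to DC-Young (median -1.31) and a positive one in DC-Old-LP relative to DC-Old (1.13), none of them called. All 4 eosinophil genes did the same, with medians of -0.98 and 1.12, and with the block 1 of them was called in each. Of 8 mast cell and basophil genes, 7 were negative in the first (median -0.32) and 8 positive in the second (0.32), where the block called 1. In DC-Dysbiotic relative to DC-Young the T cell median was only -0.12, with 5 of 6 negative. The eosinophil median was -1.16 there, with all 4 negative, and that of mast cells and basophils -0.24, with 6 of 8 negative. The C array of DC-Old differed from its A and B arrays in the summed signal of several lists. Eosinophil genes summed to 12.66 there, against 10.69 and 10.57 on A and B. Neutrophil genes summed to 15.84, against 13.03 and 13.00, and B cell genes to 14.02, against 11.60 and 11.68. The T cell sum was lower there, at 12.27 against 13.10 and 13.15. Of 10 macrophage genes none was called without the block in DC-Old relative to DC-Young or in DC-Old-LP relative to DC-Old. With the block 1 was lower in the first and 1 was higher in the second. Their part in the *Rarb*, *Cyp26b1* and *Asb2* values was not tested.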

How the data were processed

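The 12 samples, 3 per group, are RNA of LPS-stimulated DCs on Agilent mouse arrays of 1 colour, with groups and replicate letters taken from the labels. The deposited intensity of each spot is the authors' Feature Extraction output, background-subtracted and not normalized between arrays. The submitters' processing notes name version 10.5 and the file headers 12.1.1.1. A log2 table that the authors deposited covers 46302 probes and equals, as far as a comparison with the spots shows, the quantile-normalized median signal with no background taken off (median r of 1.00 over arrays). Here the intensity was used, with control spots left out and 1068 readings of 59305 spots set to missing as outliers (none of a member), quantile normalized on the log2 scale and averaged to 56605 probes. Probes were named through RefSeq accessions, which matched 35405 probes. The gene table is for GRCm38.p6 and the array headers name another mouse build, so no gene coordinates are printed, and promoters are those of RefSeq.

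R 4.3.3 with limma 3.58.1 (lmFit, eBayes) was fitted to all 12 arrays with 1 mean per group, and p-values were Benjamini-Hochberg adjusted over all probes. The steps were tested on simulated data. Genes with several probes were read at the brightest. All members were named. Of the other lists, called genes were named, as were the 3 pathway genes with the largest change, among those well above background on every array of a group, in DC-Old relative to DC-Young and in DC-Old-LP relative to DC-Old. *Aldh1a7*, *Hic1*, *Cebpe*, *Vdr* and *Nr1h3*, and the markers named for their level, were added after their values were seen. The members and lists were chosen with earlier results of these data known. Intervals are at 95% and use limma's moderated spread. Precision is limited by the number of arrays and, on the dimmer ones, by signal near background.

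Deviations from the group means correlated between groups by 0.415 to 0.711 for the same letter, and the fit with the letter as a block is given where it changes a call. A and B correlated alike (0.449 to 0.570) and C against A or B by -0.659 to -0.466, so the letter mainly separates the C arrays. These values do not show that arrays of the same letter are paired, and the labels name no pairing. The alternatives were a shift by the 75th percentile, normexp background correction (offset 50, on the median signal), the authors' table, a filter that keeps 25581 probes (well above background throughout at least 1 group), a mean over each gene's probes, a block for the letter or for the slide, the 2 groups alone, a trend in eBayes, outlier spots kept, unadjusted p, the first slide alone, and each array left out in turn.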

Additional observations from a re-analysis of the deposited data

How the results depend on the processing

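The differences of *Aldh1a1*, *Aldh1a2*, *Rarb* and *Cyp26b1* that were 0.5 or more in size in the main fit, 19 in all, kept their direction under 24 settings. Many of these settings leave the fold change as it is by construction. Smaller differences were left out of this count, and not all of them kept their direction. *Rarb* in DC-Old-LP relative to DC-Young was 0.10, but -0.05 with the slide as a block and -0.10 on the A and B arrays alone. In DC-Old relative to DC-Young, 2 members were called, 1 with normexp or the mean over probes, 0 with the 2 groups alone, 4 within the first slide and 4 at an unadjusted p, and 1 to 2 with an array left out. In DC-Dysbiotic relative to DC-Young, 1 was called, 3 with the replicate block, 3 with the slide as a block, 4 within the first slide and 3 at an unadjusted p. In DC-Old-LP relative to DC-Old, 2 were called, 0 with the 75th percentile shift or the 2 groups alone, 1 with the mean over probes, 4 within the first slide and 0 to 2 with an array left out. In DC-Old-LP relative to DC-Dysbiotic, 0 were called, 1 with the filter, the mean over probes or the eBayes trend, 3 with the replicate block, 3 with the slide as a block, 4 within the first slide, 3 at an unadjusted p and 0 to 1 with an array left out. In DC-Old-LP relative to DC-Young and in DC-Old relative to DC-Dysbiotic, 0 were called and 1 at an unadjusted p. The replicate block changed no call of a member other than those given above. In the fits with the 2 groups alone fewer arrays estimate the spread. The cause of the other changes was not tested. The dim C arrays limit the precision of *Rarb*, whose signal on the C array of DC-Old was not well above background.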

Other observations

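The genes whose pattern over the 12 arrays was most like that of *Aldh1a2* were looked for among 10668 named genes with a signal well above background on all 12 arrays. Pearson's r, as a description over 12 arrays that share slides, was highest for *Ccdc80* (0.995), *Ap1s2* (0.989), *Kank3* (0.984), *Prr5l* (0.983) and *Cdk14* (0.981). With values centred by slide, which takes out the offset of the C arrays, it was highest for *Prr5l* (0.995), *Ttc39a* (0.995), *Ccdc80* (0.994), *Plk2* (0.991) and *Fam20a* (0.991). The C arrays of the young and of the old groups lie on different slides. Centring therefore also takes out the difference between young and old on the C arrays. *Ccdc80* and *Prr5l* stood in both lists. *Ccdc80* had log2 fold changes of -1.29 in DC-Old relative to DC-Young and 0.98 in DC-Old-LP relative to DC-Old. Neither was called in limma without or with the replicate letter as a block (adjusted p of 0.73 and 0.078 for the first, and 0.998 and 0.21 for the second). *Ccdc80* was picked for its likeness to *Aldh1a2* on these arrays, so like fold changes follow from that choice.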
